A study of Mus musculus with 5 samples.

Results

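The Rb-/- library was compared with the RbΔL/ΔL library in a γH2AX ChIP-seq experiment on proliferating primary mouse embryonic fibroblasts at passage 4. The pair is 2 of the 5 samples of the series and was chosen by genotype. Rb-/- cells lack the retinoblastoma protein altogether. RbΔL/ΔL cells carry the ΔL allele on both chromosomes, and the protein it encodes has a disrupted cleft for partners with an LXCXE motif. Each genotype has 1 ChIP library, and the series holds 1 library of input DNA, whose genotype the labels do not give. Whether the cells came from 1 embryo or several is not given either. Rb+/+ and RbΔL/+ libraries, also 1 each, are used below only for context.

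The retinoblastoma protein restrains E2F transcription factors and holds cells back from S phase. Through its LXCXE cleft it also recruits chromatin proteins, and it takes part in a complex with E2F1 and Condensin II that acts on chromosome structure. γH2AX is H2AX phosphorylated in the chromatin around broken DNA and stressed replication forks. The pair therefore sets loss of the whole protein against loss of 1 of its binding surfaces.

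Read counts over 12 classes totalled 16703500 in Rb-/-, 16061083 in RbΔL/ΔL and 17180437 in the input. The classes cover 11 kinds of repeat and the unique genome, and 13 satellite families divide the satellite class. A class is given as its share of the library total, in percent or as counts per 1000000 of that total (CPM). Intervals are 95% and cover counting error alone, since reads are not independent molecules. With 1 library a side no test between genotypes was possible, and values describe these libraries. The total of a library binds its classes together, so a higher share of one class lowers the others.

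Repeats together took a larger share of the Rb-/- library than of the RbΔL/ΔL library. They held between 10.98 and 11.01% of counts in Rb-/-, 10.44% in RbΔL/ΔL (10.43 to 10.46) and 11.26% in the input, a ratio of 1.054 between the mutants (1.052 to 1.056). The difference lay outside the satellites. Without the satellite class the repeat share was 7.85% in Rb-/-, 7.26% in RbΔL/ΔL and 7.31% in the input, so that RbΔL/ΔL was near the input and Rb-/- above it. The ratio of these shares was 1.081 (1.079 to 1.084).

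LINEs, long elements that copy themselves through RNA, accounted for most of that difference. They took 23481 CPM in Rb-/-, 19696 in RbΔL/ΔL and 19520 in the input. The Rb-/- share was 1.192 times that of RbΔL/ΔL (1.187 to 1.198), just under the 1.2-fold limit used here to count classes. In absolute terms Rb-/- had 3785 more LINE CPM (3684 to 3885). The differences of the classes that were higher in Rb-/- summed to 6162 CPM, and LINEs were 61.4% of that sum. Of the 6 pairs that the 4 ChIP libraries form, this pair was the furthest apart for LINEs. Rb+/+ lay between the mutants, with Rb-/- at 1.1 times its share and RbΔL/ΔL at 0.922.

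Endogenous retroviruses, the proviral remnants of old infections, made up 24.9% of the same sum. They stood at 22866 CPM in Rb-/-, 21335 in RbΔL/ΔL and 21174 in the input, a ratio of 1.072 (1.067 to 1.077) between the mutants. SINEs, short elements that depend on LINE proteins to move, were at 3998, 3678 and 3959 in the same order, a ratio of 1.087 (1.075 to 1.099). Here Rb-/- was near the input and RbΔL/ΔL below it, the reverse of the picture for LINEs. LINEs exceeded SINEs by more in Rb-/-, with a LINE-to-SINE ratio 1.097 times that in RbΔL/ΔL (1.084 to 1.11), a comparison that uses no library total.

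**Figure D1:**
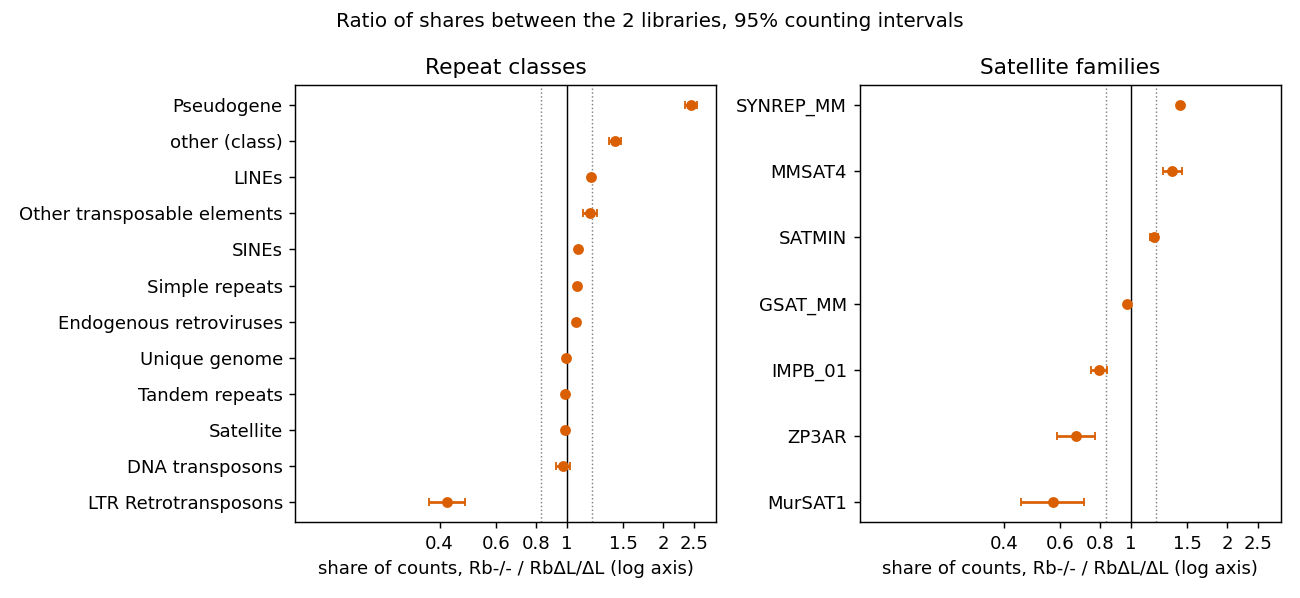
Ratio of the share of counts in Rb-/- to that in RbΔL/ΔL for the 12 classes, unique genome included (left), and 7 satellite families (right), on a log axis. Points are the ratios, bars are 95% counting intervals and dotted lines mark 1.2-fold. Pseudogene (2.45) and LTR retrotransposons (0.421) lie furthest from 1 among the classes, and SYNREP_MM (1.43) and MurSAT1 (0.568) among the families.

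The largest ratios between the 2 mutants belonged to small classes. With a limit of 1.2-fold, 2 of 12 classes were higher in Rb-/- (16.7%) and 1 of 12 was lower (8.33%), while the median class ratio was 1.074. The class named Pseudogene had 6936 counts in Rb-/-, 2726 in RbΔL/ΔL and 1961 in the input. Its ratio between the mutants was 2.45 (2.34 to 2.56), and both libraries were above the input. Against the Rb+/+ library both were lower, Rb-/- at 0.595 times its share and RbΔL/ΔL at 0.243, so the place of the mutants depends on the reference. The class that the authors called other had 4980, 3380 and 3666 counts, a ratio of 1.42 (1.36 to 1.48), with only Rb-/- above the input.

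LTR retrotransposons went the opposite way. This class, listed apart from the endogenous retroviruses, had 325 counts in Rb-/-, 742 in RbΔL/ΔL and 821 in the input. The Rb-/- share was 0.421 times that of RbΔL/ΔL (0.37 to 0.48), and RbΔL/ΔL did not differ from the input beyond counting error (0.967, 0.875 to 1.07). Against Rb+/+ the values were 0.423 in Rb-/- and 1.003 in RbΔL/ΔL. Relative to endogenous retroviruses, there were 0.851 LTR retrotransposon counts per 1000 in Rb-/-, 2.17 in RbΔL/ΔL and 2.26 in the input. The 2 LTR-bearing classes were thus on opposite sides in this pair.

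The remaining classes differed less. Other transposable elements had 198.6 CPM in Rb-/-, 168.4 in RbΔL/ΔL and 167.9 in the input, a ratio of 1.179 (1.121 to 1.24). Simple repeats, short motifs in tandem, were at 2274, 2111 and 2345, a ratio of 1.077 (1.062 to 1.093) with both mutants below the input. DNA transposons, which move by cutting and pasting, had a ratio of 0.971 whose interval included 1 (0.923 to 1.02). It was the only class of the 12 whose interval did, beside 7 with intervals above 1 and 4 below.

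Among the classes that were lower in Rb-/-, the unique genome made up most of the difference. It held 89.00% of counts in Rb-/- and 89.56% in RbΔL/ΔL. The difference was -5595 CPM (-6242 to -4948, a Poisson interval that is too wide for so large a share). That was 90.8% of the summed lower values. The fold was small, at 0.994 (0.9935 to 0.994). Tandem repeats were at 24778 and 25013 CPM, a ratio of 0.991 (0.986 to 0.995). For this class and for simple repeats, the pair was the closest of the 6 pairs of ChIP libraries.

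**Figure D2:**
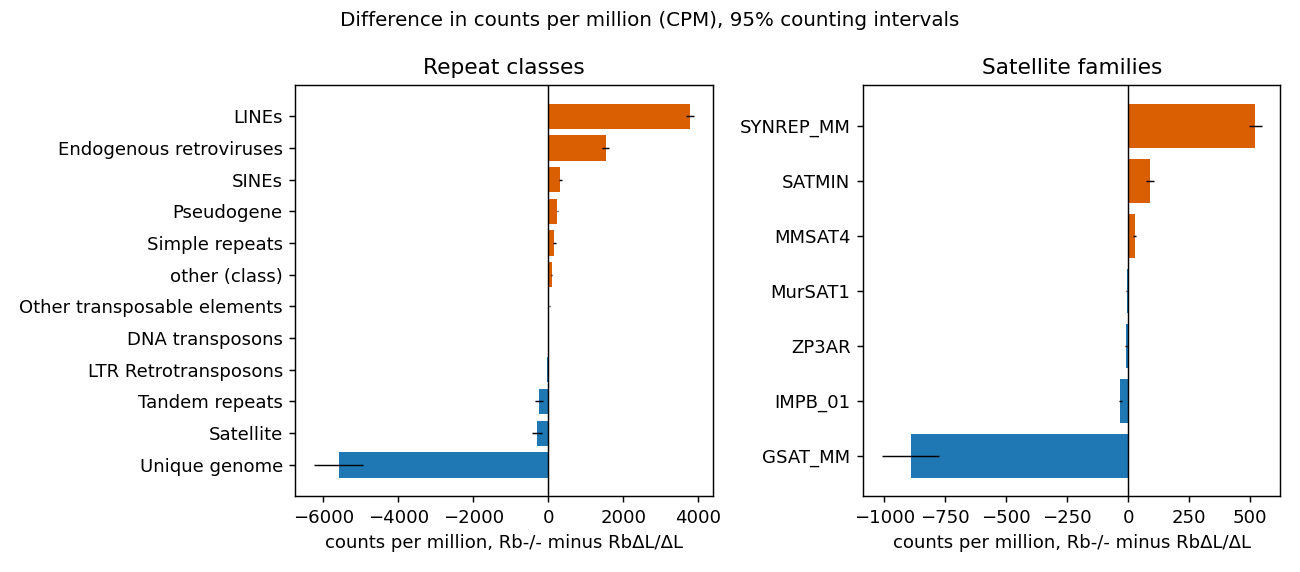
CPM in Rb-/- minus those in RbΔL/ΔL for each class (left) and each satellite family with over 3 counts (right). Bars start at 0, orange is higher in Rb-/- and blue lower, and black lines are 95% counting intervals. LINEs (3785) and the unique genome (-5595) dominate the classes, and SYNREP_MM (521) and GSAT_MM (-892) the families.

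Summed over the classes, 0.616% of counts would have to change class to turn one library's profile into the other's. The same measure was 0.872% between Rb-/- and the input and 0.86% between RbΔL/ΔL and the input, so on this scale the mutants were about equally far from it. Both were below it in the satellite class by a similar amount, at 31493 CPM in Rb-/- and 31793 in RbΔL/ΔL against 39514 in the input, while LINEs and endogenous retroviruses were further above it in Rb-/-. Of the class ratios to the input, 9 of 12 were further from 1 in Rb-/- than in RbΔL/ΔL. Some were nearly tied, such as the satellite class (0.797 in Rb-/- and 0.805 in RbΔL/ΔL), and the count depends on the reference. With Rb+/+ as reference, Pseudogene was further from 1 in RbΔL/ΔL (0.243) than in Rb-/- (0.595). The same change was seen for DNA transposons (1.023 in RbΔL/ΔL and 0.9938 in Rb-/-), the satellite class (1.174 and 1.163) and tandem repeats (1.046 and 1.036). Only the unique genome changed the other way, at 0.9970 in RbΔL/ΔL and 0.9907 in Rb-/-. The 9 of 12 was thus not reached with Rb+/+ as reference. Among the other ChIP libraries, Rb-/- was nearer to RbΔL/+ (0.34%) than to RbΔL/ΔL, and RbΔL/ΔL was at 0.587% from Rb+/+ and 0.58% from RbΔL/+.

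The satellite class, which includes the tandem DNA in and around centromeres, was almost the same in the 2 mutants, but its families were not. The class took 3.149% of counts in Rb-/- (3.141 to 3.158), 3.179% in RbΔL/ΔL (3.171 to 3.188) and 3.951% in the input, a ratio of 0.991 (0.987 to 0.994) between the mutants. Both mutants were below the input and above Rb+/+, at 1.163 times its share in Rb-/- and 1.174 in RbΔL/ΔL. That small net difference of -299.9 CPM was the sum of 638.7 in the 3 families that were higher in Rb-/- and -938.6 in those that were lower.

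GSAT_MM, the major satellite of pericentromeric heterochromatin, was slightly lower in Rb-/-. It had 28904 CPM in Rb-/-, 29797 in RbΔL/ΔL and 37259 in the input, a ratio of 0.970 (0.966 to 0.974) between the mutants. The difference of -892 CPM (-1009 to -775) made up 95.04% of the summed lower values within the class. GSAT_MM formed 91.8% of satellite counts in Rb-/- and 93.7% in RbΔL/ΔL.

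SATMIN, the minor satellite on which mouse centromeres are built, was higher in Rb-/-. Its counts were 9937 in Rb-/-, 8109 in RbΔL/ΔL and 9038 in the input, and its share was 1.18 times that of RbΔL/ΔL (1.144 to 1.213). Rb-/- was above the input (1.13, 1.099 to 1.16) and RbΔL/ΔL below it (0.96, 0.931 to 0.989). Set against the major satellite within each library, SATMIN gave 20.6 counts per 1000 GSAT_MM counts in Rb-/-, 16.9 in RbΔL/ΔL and 14.1 in the input. That ratio was 1.215 times as high in Rb-/- as in RbΔL/ΔL (1.179 to 1.251). Both mutants were above the input on this scale, so the place of RbΔL/ΔL relative to the input depends on the denominator, while the order of the 2 mutants did not. Against Rb+/+ both shares were higher, at 1.286 in Rb-/- and 1.091 in RbΔL/ΔL.

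SYNREP_MM, the family with the second most counts, showed the largest difference in CPM after GSAT_MM. It had 29026 counts in Rb-/-, 19542 in RbΔL/ΔL and 25142 in the input. The share in Rb-/- was 1.43 times that in RbΔL/ΔL (1.403 to 1.454), and 521 more CPM (495 to 547) were 81.6% of the summed higher values within the class. It formed 5.52% of satellite counts in Rb-/-, 3.83% in RbΔL/ΔL and 3.70% in the input. As for LINEs, no other pair of ChIP libraries was further apart for this family. The pair was the furthest apart for only 1 of 12 classes and 1 of 7 families. Among other features with large ratios, it ranked 2 of 6 for LTR retrotransposons, 3 for Pseudogene and 4 for MurSAT1. Rb-/- was above both the input (1.187) and Rb+/+ (1.135), and RbΔL/ΔL was below both (0.831 and 0.795).

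The smaller families fell on both sides. With the same 1.2-fold limit, 2 of the 7 families that had over 3 counts were higher in Rb-/- (28.6%) and 3 of 7 were lower (42.9%), with a median ratio of 0.970 set by GSAT_MM. The second of the higher families, MMSAT4, had 1788 counts in Rb-/-, 1275 in RbΔL/ΔL and 1542 in the input, a ratio of 1.35 (1.255 to 1.45). SATMIN was just under the limit. All families other than GSAT_MM together held 0.259% of counts in Rb-/-, 0.1996% in RbΔL/ΔL and 0.225% in the input, a ratio of 1.297 (1.278 to 1.316).

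The 3 lower families were IMPB_01, ZP3AR and MurSAT1. IMPB_01 had 2022 counts in Rb-/-, 2445 in RbΔL/ΔL and 2352 in the input, a ratio of 0.795 (0.75 to 0.843). ZP3AR had 338, 483 and 475 counts, a ratio of 0.673 (0.586 to 0.773). MurSAT1 rests on the fewest reads, with 120, 203 and 183 counts, a ratio of 0.568 (0.454 to 0.712). For ZP3AR and MurSAT1, RbΔL/ΔL did not differ from the input beyond counting error and Rb-/- was below it. Against Rb+/+, ZP3AR was higher in both, at 1.437 in Rb-/- and 2.136 in RbΔL/ΔL, and MurSAT1 was at 0.770 and 1.355. No ratio is given for 6 families with at most 1 count in either library, namely TAR1, SVA2, ZP3AR_MM and the 3 SQR families. By a floor of 3 counts, a count of 0 allows a share of up to 1.80e-05% in Rb-/- and 1.87e-05% in RbΔL/ΔL, and the exact 95% interval reaches 2.21e-05% and 2.30e-05%.

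The peak lists were compared on the autosomes, where the Rb-/- list was shorter. The authors deposited a separate peak list for each ChIP library, and its score was read as larger for a smaller p-value. Rb-/- had 1546 autosomal peaks and RbΔL/ΔL had 1874, a ratio of 0.825 (0.771 to 0.882). Scaled to the library totals this was 92.6 and 116.7 peaks per 1000000 counts. The covered length was closer, at 564.7 kb and 608.8 kb. The number of peaks moves with depth and background, whose part in this difference was not tested, and no order of γH2AX amount is read from it.

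The 2 lists were made up of peaks of different shape. The middle of the RbΔL/ΔL list was tight, with quartiles of 287, 321 and 342 bp, whereas the Rb-/- list was spread over 244, 338 and 474 bp. Peaks under 250 bp were 27.2% of the Rb-/- list (24.96 to 29.5) and 9.02% of the RbΔL/ΔL list (7.76 to 10.4). The median score was 94.1 in Rb-/- and 59.6 in RbΔL/ΔL. Scores of 100 or more were held by 719 peaks of Rb-/- (46.5%, 44.0 to 49.0) and by 19 of RbΔL/ΔL (1.01%, 0.612 to 1.58). Scores of separate libraries are not on one scale.

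Scores of at least 100 in Rb-/- belonged mainly to its narrowest peaks, but its 10 highest-scoring peaks were 425 to 1880 bp wide. All 387 peaks in the narrowest quartile of that list, 198 to 244 bp wide, scored at least 100, with a median of 145.2. In its widest quartile, 9.30% did and the median was 75.3. In RbΔL/ΔL the narrowest and widest quartiles had near-equal median scores, 62.8 and 62.4. Over all peaks, Spearman's rho between score and width was -0.806 in Rb-/- and -0.168 in RbΔL/ΔL. Pearson's r of the log10 values was -0.557 in Rb-/- and 0.212 in RbΔL/ΔL, so the sign in RbΔL/ΔL depends on the measure. There, scores of at least 100 were held by 3.20% of the widest quartile and 0.426% of the narrowest. Peaks of one library share its depth and background, so this describes the lists.

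Scores in Rb-/- were also bunched on a few values. Its 4 most frequent scores, 145.16, 82.8, 123.76 and 102.95, were shared by 180, 147, 122 and 109 peaks, together 36.1% of the list (33.7 to 38.5). The 180 peaks at 145.16 had a median width of 208 bp. In RbΔL/ΔL the 4 most frequent scores took 6.24% (5.19 to 7.44), the commonest of them held by 36 peaks. The bands of equal score were thus a feature of the Rb-/- list far more than of the other.

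**Figure D3:**
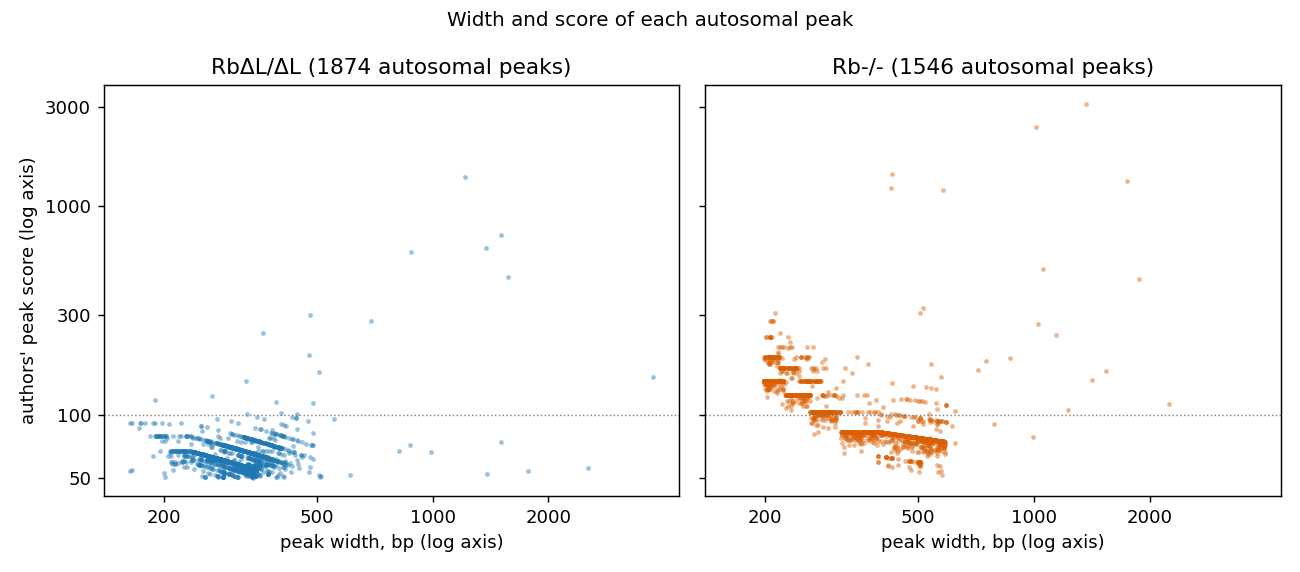
Width in bp and the authors' score of every autosomal peak in RbΔL/ΔL (left, 1874 peaks) and Rb-/- (right, 1546 peaks), both on log axes; the dotted line is a score of 100. In Rb-/- the narrow peaks form horizontal bands of equal score above 100, and in RbΔL/ΔL nearly all peaks lie under it.

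Few peaks were in the same place in both lists. By an overlap of at least 1 bp, 15 peaks of Rb-/- (0.970%, 0.544 to 1.595) met 15 of RbΔL/ΔL (0.8004%, 0.449 to 1.32), in 14 regions. Only 29 peaks of Rb-/- (1.876%) and 35 of RbΔL/ΔL (1.868%) overlapped a peak of any other ChIP library. Low sharing was thus a trait of both lists and not particular to this pair. In Rb-/- all of the 10 highest-scoring peaks were shared with RbΔL/ΔL, and 4 shared peaks ranked below the first 100. In RbΔL/ΔL 5 of the 10 highest were shared with Rb-/-. Both Rb+/+ and RbΔL/+ also had a peak in 13 of the 14 regions. By presence of a peak, these 13 are thus not places where the 2 mutants meet apart from the other libraries. What the input showed at these places was not analysed here.

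The shared regions were on chromosomes 2, 6, 8, 9, 12 and 17 of mm9, with 6 on chromosome 9. Peaks covered fewer bp in RbΔL/ΔL than in Rb-/- in 12 of the 14. The highest of both lists was at chromosome 2, 98506246 to 98507611, with 1366 bp covered in Rb-/- and 1213 bp in RbΔL/ΔL. Its neighbours at 98502258 to 98503270 and 98505037 to 98505499 were covered over 1013 and 426 bp in Rb-/- and 879 and 363 bp in RbΔL/ΔL. The single regions of chromosome 6, at 103599001 to 103599514, and of chromosome 9 inside the arm, at 35112673 to 35113252, had 425 and 580 bp in Rb-/- against 477 and 480 bp in RbΔL/ΔL.

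The widest gaps in coverage were at the centromeric end of chromosome 9. At 3023060 to 3024803 a single Rb-/- peak of 1744 bp scored 1316.29, rank 4 of its list. RbΔL/ΔL had a pair of peaks there with 600 bp in all and a highest score of 144.92. Peaks of Rb+/+ and RbΔL/+ there scored 1266.36 and 796.37, so a high score at this place was not particular to Rb-/-. At 3001944 to 3002997 the covered length was 1054 bp in Rb-/- and 443 bp in RbΔL/ΔL, and at 3024923 to 3026212 it was 1143 and 817 bp. The regions at 2999906 to 3001785 (1880 and 1767 bp) and 3006544 to 3007167 (513 and 379 bp) had the same order. A region of chromosome 12, at 3109703 to 3110262, was covered over 506 and 480 bp but was rank 10 in Rb-/- and rank 1312 in RbΔL/ΔL. Its score was 307.58 in Rb-/- and 56.39 in RbΔL/ΔL, beside 307.57 in Rb+/+ and 222.55 in RbΔL/+.

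One of the 2 regions on chromosome 17 ranked higher in RbΔL/ΔL. The region at 39979934 to 39983679 was covered over 3664 bp in Rb-/- and 3746 bp in RbΔL/ΔL, and held rank 180 in Rb-/- (score 147.31) and rank 11 in RbΔL/ΔL (151.91). Next to it, 39984266 to 39985861 had 1539 and 1510 bp and held rank 168 in Rb-/- (161.93) and rank 190 in RbΔL/ΔL (73.7). Overlapping peaks of Rb+/+ and RbΔL/+ scored 2233.31 and 2107.06 in the first region, and 2233.31 and 504.4 in the second. In these 2 regions both mutants thus had lower scores than both other libraries. The shared region of chromosome 8, at 130236516 to 130237036, was the one with no peak in Rb+/+ or RbΔL/+, and its scores were low, 76.69 in Rb-/- and 51.98 in RbΔL/ΔL. Lists of different length and score scale allow no change to be read from ranks or from scores of separate libraries.

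**Figure D4:**
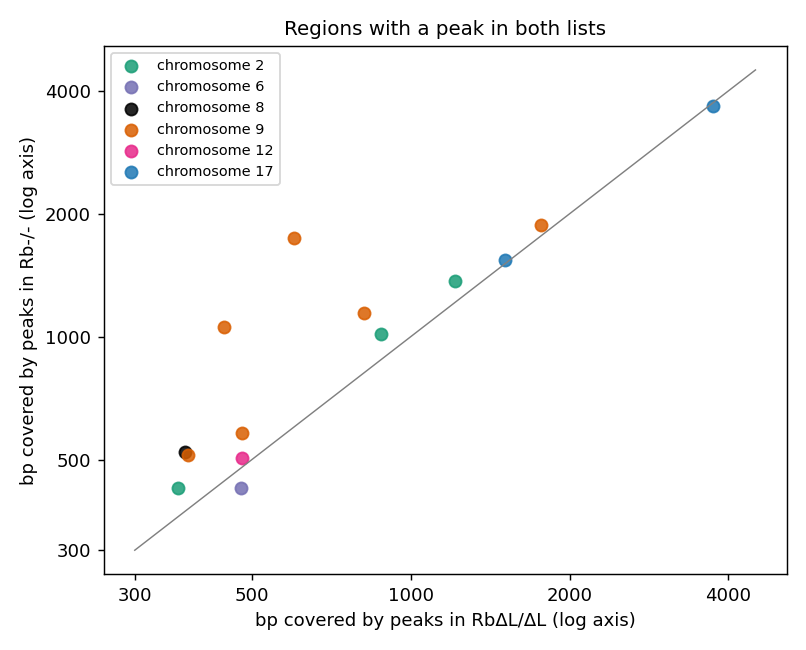
Base pairs covered by peaks of RbΔL/ΔL (x axis) and of Rb-/- (y axis) in the 14 regions that hold a peak in both lists, on log axes, coloured by chromosome; the grey line marks equal lengths. Of the 14 points 12 lie above the line, furthest for chromosome 9 with 1744 bp against 600 bp.

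Among peaks of 1 list alone, the 5 highest-scoring were broad in RbΔL/ΔL and narrow in Rb-/-. Ranking by score favours narrow peaks in Rb-/-, where rho of score and width was -0.806 and the 10 highest peaks were all shared. No contrast between the genotypes is read from these widths. RbΔL/ΔL had a run of 3 peaks on chromosome 11, at 74578883 to 74580392, 74580459 to 74581835 and 74581937 to 74583510. They were 1510, 1377 and 1574 bp wide with scores of 729.91, 626.6 and 456.21, and neither Rb-/- nor any other library had a peak there. Next came chromosome 11 at 87236283 to 87236975 (281.76) and chromosome 9 at 65049294 to 65049799 (159.94), both also found in RbΔL/+. The highest peaks of Rb-/- alone were 206 to 212 bp wide. They lay on chromosome 6 at 13464910 to 13465121 (306.8), and, with an equal score of 282.68, on chromosome 10 at 63509499 to 63509708, chromosome 2 at 22502764 to 22502969, and chromosome 9 at 28098079 to 28098288 and 40068461 to 40068667. No other library had a peak at any of these 5.

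Overlap with the heterozygous RbΔL/+ list was similar in the 2 mutants, with 23 peaks of Rb-/- (1.49%, 0.945 to 2.22) and 31 of RbΔL/ΔL (1.65%, 1.13 to 2.34). The peaks differed in which other libraries held them. RbΔL/ΔL had 16 peaks that overlapped a peak of RbΔL/+ and of neither other library (0.854%, 0.489 to 1.38), and Rb-/- had 2 (0.129%, 0.0157 to 0.467). A further 7 peaks of Rb-/- and 1 of RbΔL/ΔL were in both RbΔL/+ and Rb+/+ but not in the other mutant. The count of peaks held with RbΔL/+ alone was chosen after the values were seen. The 16 included both members of a pair on chromosome 11, at 87236283 to 87236975 and 87240145 to 87240631, and of a pair on chromosome 9, at 65044130 to 65044683 and 65049294 to 65049799. Their scores in RbΔL/ΔL were 281.76, 113.29, 95.19 and 159.94. Also among the 16 were chromosome 11 at 101519660 to 101519926 (123.45) and chromosome 4 at 116862451 to 116862894 (100.87). With Rb+/+ alone, Rb-/- shared 5 peaks (0.323%, 0.105 to 0.753) and RbΔL/ΔL 3 (0.16%, 0.033 to 0.467), whose intervals overlap. The 2 lists differ in length and peak width, whose part in these counts was not tested. Overlap also moves with the lengths of the Rb+/+ and RbΔL/+ lists, which are not given here. Sharing with RbΔL/+ alone is therefore not weighed against sharing with Rb+/+ alone.

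Peaks of both lists were spread over the autosomes in much the same way. On none of the 19 autosomes were the exact intervals of the 2 shares apart, and 4.91% of peaks would have to change chromosome to match the lists. Chromosome 15 had the only difference whose interval excluded 0, with 3.23% of Rb-/- peaks (50) and 4.59% of RbΔL/ΔL peaks (86). It was -1.36 points (-2.65 to -0.0341). No correction was made for the 19 comparisons, so no difference between the lists is read from this interval. The share in the first 10 Mb, next to the centromere, was 5.82% in Rb-/- (90 peaks) and 6.46% in RbΔL/ΔL (121 peaks). The difference of -0.635 points had an interval of -2.24 to 1.005, so a difference was not detectable with these numbers of peaks.

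Most peaks stood alone. The median gap to the next peak was 1044 kb in Rb-/- and 823.1 kb in RbΔL/ΔL. Peaks within 10 kb of another of the same list were 40 in Rb-/- (2.59%, 1.86 to 3.51) and 56 in RbΔL/ΔL (2.99%, 2.27 to 3.86), a difference of -0.401 points (-1.51 to 0.740). The 40 peaks fell into 15 clusters and the 56 into 26, and each list had 4 clusters of 3 or more. The longest run in Rb-/- was on chromosome 9, at 3018804 to 3036451, with 8 peaks over 17.7 kb. Of these, 2 overlapped a peak of RbΔL/ΔL, whose own run there had 3 peaks over 2.85 kb, at 3023365 to 3026212.

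**Figure D5:**
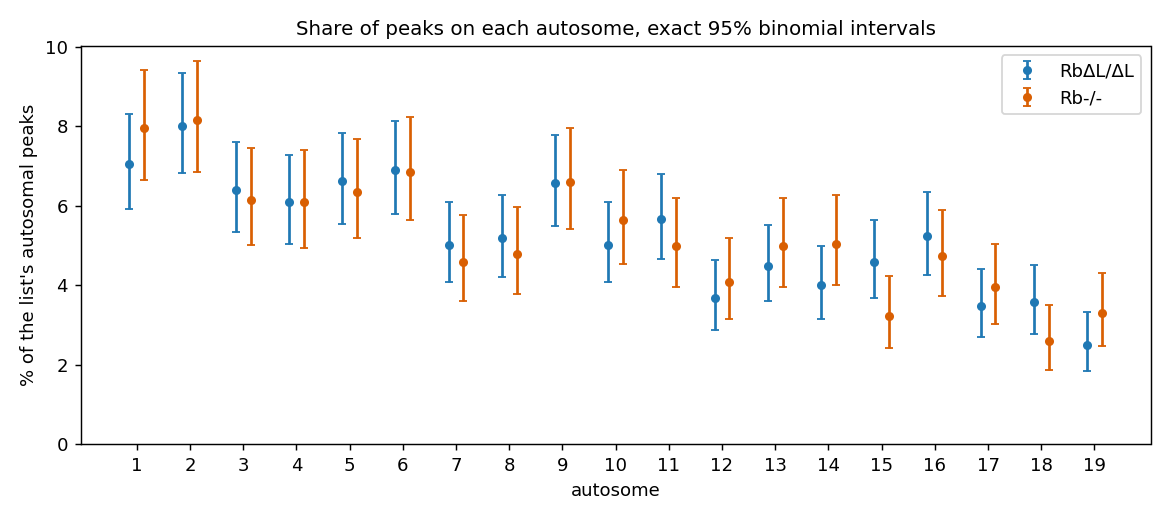
Share of each list's autosomal peaks on each of the 19 autosomes, in percent, for RbΔL/ΔL (blue) and Rb-/- (orange), with exact 95% binomial intervals. The intervals overlap on every autosome, and chromosome 15 shows the largest gap (3.23% in Rb-/- and 4.59% in RbΔL/ΔL).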

How the data were processed

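The authors deposited whole-number read counts per repeat class and satellite family for each library, and a list of scored peaks for each ChIP library. Per the submitters' processing notes, the tools were Bowtie 1.0 and MACS 1.4.2 and the build was mm9, with no role stated. The sources used here do not give the treatment of duplicates or of reads that match several copies, nor the control and threshold for peaks. The deposited score was read as -10 times log10 of a peak's p-value, which no header states. Lists were assigned by the sample they were deposited with, although each carries a sample number 1 higher than its label, and all peak results rest on this.

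Shares were divided by the library total. Intervals at 95% were exact (Clopper-Pearson) for shares, on the log scale for ratios, and Newcombe's for differences of peak shares. Those of CPM differences were normal with a Poisson variance, which is wider than a binomial one for a share as large as the unique genome's. Autosomal peaks were matched by at least 1 bp overlap. Coordinates are mm9, counted from 1. The genes at the peaks and their sequences were not analysed here. Python 3.11.15, numpy 2.4.6, pandas 2.3.3 and scipy 1.17.1 were used, and scripts were tested on simulated data. All classes, all families, the 10 highest-scoring peaks of each list, shared regions, the 5 highest of 1 list alone and the longest runs were named. The pair, items and limits were chosen with earlier results of these data known. Alternatives covered denominators, scaling, folds, score and overlap limits and distances.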

Additional observations from a re-analysis of the deposited data

Results flagged for a closer look

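For 4 satellite families the 2 mutants lay on opposite sides of the input, each by more than counting error; the difference was not tested, since each side is 1 library. MMSAT4 was at 1.193 times the input in Rb-/- and 0.8845 in RbΔL/ΔL, SYNREP_MM at 1.187 and 0.8314, and SATMIN at 1.131 and 0.9597. IMPB_01 had the opposite order, at 0.8842 in Rb-/- and 1.112 in RbΔL/ΔL. With Rb+/+ in place of the input, both mutants were on the same side for MMSAT4 (0.8688 and 0.6443) and SATMIN (1.286 and 1.091), and on opposite sides for SYNREP_MM (1.135 and 0.7949) and IMPB_01 (0.8624 and 1.085). The X chromosome, which no autosomal comparison used, held 86 peaks in the Rb-/- list and 102 in the RbΔL/ΔL list.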

How the results depend on the processing

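Ratios are Rb-/- over RbΔL/ΔL. Dividing by the total without the unique genome gave 0.9402 for the satellite class, 0.9207 for GSAT_MM, 1.118 for SATMIN, 1.132 for LINEs and 2.322 for Pseudogene. It also gave 1.017 for endogenous retroviruses, 1.032 for SINEs and 1.022 for simple repeats, nearer to 1 than with the full total. DNA transposons (0.9218) and tandem repeats (0.9402) were further from 1. Setting the median class ratio to input to 1 gave 0.9706 for the satellite class, 0.9505 for GSAT_MM and 1.168 for LINEs, and as a share of satellite counts alone GSAT_MM was at 0.9793. No ratio between the mutants changed direction. A fold of 1.1 counted 5 classes instead of 3. For families, a fold of 1.5 counted 1 and a minimum of 1000 counts 3, instead of 5.

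With Rb+/+ in place of the input as reference, these ratios crossed 1. In Rb-/- they were the satellite class (1.163), Pseudogene (0.5952), tandem repeats (1.036), the unique genome (0.9907), GSAT_MM (1.165), MMSAT4 (0.8688) and ZP3AR (1.437). In RbΔL/ΔL they were endogenous retroviruses (0.9822), LINEs (0.9224), the satellite class (1.174), Pseudogene (0.2433), tandem repeats (1.046), the unique genome (0.9970), GSAT_MM (1.201), SATMIN (1.091), DNA transposons (1.023), LTR retrotransposons (1.003) and the class called other (1.150).

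Peaks with a score of at least 100, of which RbΔL/ΔL has only 19, turned the peak number ratio to 37.84 and the difference in median width from 17 to -242 bp. They also put 36.84% of RbΔL/ΔL peaks among the shared and moved the difference in clustered peaks to -39.18 points. With a distance of 50 kb the latter was -2.052 points. The cause of these shifts was not tested. Leaving out peaks found in another list, chosen after seeing the data, left the peak number ratio at 0.8249. That step could hardly move the ratio, since it removed only 1.876% of the Rb-/- list and 1.868% of the RbΔL/ΔL list. Nothing is concluded from it.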
